A study of Mus musculus with 8 samples.

Results

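The NF-kappaB family of transcription factors and the IkappaB proteins that hold it in check were followed by RNA sequencing in a line of mouse alveolar macrophages, MH-S. The 10 genes were taken by symbol from a table of 17518 genes: the subunits Nfkb1, Nfkb2, Rela, Relb and Rel, the classical inhibitors Nfkbia, Nfkbib and Nfkbie, and the atypical IkappaB proteins Nfkbiz and Bcl3. All 10 were in the table and all 10 were among the 11911 genes tested. There were 8 libraries in 3 groups: control cells given PBS (n = 3), cells treated with LPS, the endotoxin of the outer membrane of gram-negative bacteria (n = 2), and cells given LPS together with RCMNs (n = 3), a name that the labels do not expand. The series text gives RCMNs at 1 ug/mL in the presence of LPS at 100 ng/mL. The dose in the LPS group, the time of exposure and RCMNs without LPS are not given in the labels. All groups are the same cell line, no allele or transgene is named, and separate cultures for the replicates are not stated. The p-values therefore measure the spread between these libraries, which may be technical.

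NF-kappaB works as a dimer. In resting macrophages most dimers of Rela and the p50 product of Nfkb1 are bound in the cytoplasm by IkappaB proteins. LPS acts through Toll-like receptor 4 and the IkappaB kinase complex, which marks the inhibitors for destruction and frees the dimer to enter the nucleus. A slower alternative route processes the Nfkb2 product to p52, the usual partner of Relb. Nfkbia, Nfkb1, Nfkb2, Relb and Bcl3 are themselves textbook targets of NF-kappaB, so that the pathway feeds back on its own parts. Control by degradation, phosphorylation and location of the proteins is not seen in RNA.

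Because NF-kappaB binds DNA at a known consensus decamer and several of these genes are textbook targets of it, their promoters were searched for that decamer on both strands, in the 250 bases before each start site (RefSeq, GRCm38.p6). The pattern searched was GGGRNWYYCC, where R is A or G, N any base, W is A or T, and Y is C or T. A promoter sequence was at hand for 7 of the 10 genes and not for Nfkb1, Relb and Nfkbiz. The decamer was found in 4 of the 7, namely Nfkb2, Rel, Nfkbia and Nfkbie, and in 4.46% of all 27025 genes searched. It was not found in the windows of Rela, Nfkbib and Bcl3, which says only that these letters are not there. The Nfkbia window, chr12:55492648-55492897, minus strand, holds 1 match that starts 29 bases before the start site. The Nfkbie window, chr17:45555450-45555699, plus strand, holds 1 match that starts 106 bases before it. Neither window overlaps an annotated exon. They are shown because the first belongs to the gene with the largest fitted rise under LPS among the 10 and the second to an inhibitor that did not rise. Both are written 5′ to 3′ on the strand of the gene, with the matched decamer in capitals.
Nfkbia: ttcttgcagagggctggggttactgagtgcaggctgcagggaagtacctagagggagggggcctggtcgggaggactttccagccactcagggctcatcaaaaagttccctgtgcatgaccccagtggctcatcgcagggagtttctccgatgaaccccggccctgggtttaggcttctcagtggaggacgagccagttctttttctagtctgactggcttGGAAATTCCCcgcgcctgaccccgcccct
Nfkbie: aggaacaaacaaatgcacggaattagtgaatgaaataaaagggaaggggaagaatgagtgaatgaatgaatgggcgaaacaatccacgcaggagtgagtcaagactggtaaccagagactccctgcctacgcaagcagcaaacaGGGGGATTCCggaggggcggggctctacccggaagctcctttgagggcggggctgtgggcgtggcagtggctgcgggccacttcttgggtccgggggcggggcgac
The windows of Nfkb2 and Rel overlap annotated exons, so only decamers are shown from them, on the strand of the gene. The windows of the later Nfkb2 start sites held 1 match each, at chr19:46305459-46305468 and chr19:46305705-46305714, not printed here. In the first of 3 Nfkb2 start sites, at chr19:46304698-46304707 and chr19:46304726-46304735, the decamers were these, the first of which overlaps a further match shifted by a single base.
Nfkb2, first match: GGGAATTCCC
Nfkb2, second match: GGGGCTTTCC
Rel, chr11:23771052-23771061, which also overlaps a match shifted by a single base, held the following.
Rel: GGGAAATCCC
A match in the sequence is a description of letters and not a measured binding site.

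Depth was even, at 18.6 to 21.2 M estimated counts per library, and counts of the 10 genes ran from 42.0 (Nfkbie, LPS+RCMNs replicate 3) to 7155 (Nfkb1, LPS replicate 1). The LPS libraries differed from all others in a trend with gene length. Against the control mean, the shortest 10% of genes (up to 1.13 kb) had a median log2 level 1.18 and 1.20 higher in the 2 LPS libraries, and the longest 10% (from 6.20 kb) differed by -1.0 and -0.89, while LPS+RCMNs libraries lay within -0.12 to 0.09. Summed CPM of 8 erythroid markers in the table was 4360 to 5620 in the LPS libraries. It was 1.21 to 21 in control and 0.911 to 34.4 in LPS+RCMNs libraries. In the LPS libraries almost all of it came from the globin genes Hba-a1, Hba-a2, Hbb-bs and Hbb-bt, with Alas2 at 30 and 33.3 CPM. Klf1, Slc4a1 and Epb42 lay at 0.182 to 0.545 CPM there, where 3 counts are 0.182 CPM, and at most 0.303 CPM elsewhere. None of the 8 was at 0 throughout a group. Summed macrophage markers lay between 5050 and 8680 CPM in every library, and 14 of 16 had a count in every control library, with Car4 at 0 in control and LPS+RCMNs libraries. Summed neutrophil markers were at most 0.709 CPM outside the LPS group and 5.15 to 5.33 CPM in it, with Ly6g at 0 in the control and LPS libraries; lymphocyte, epithelial, and fibroblast and endothelial sums were at most 1.09, 0.242 and 3.63 CPM. A library in each of the other groups differed from its fellows, namely control replicate 1 and LPS+RCMNs replicate 2. Chi-square per degree of freedom between counts was 44.5 and 47.4 for the first against its fellows, and 35.5 and 42.7 for the second. It was 1.93 and 2.82 between the remaining libraries of those groups and 12.5 between the LPS libraries. Deviations from the group mean correlated at 0.33 between these 2 libraries, the highest value of any pair across groups. Both were picked from these same data. Results are therefore given also with the trend on length and level removed, or without those 2 libraries, where that matters. The part of the length trend, the erythroid RNA and these 2 libraries in the results was not tested beyond those values. In bulk RNA, fewer cells of a type and less RNA per cell cannot be told apart.

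Under LPS the RNA of most subunits and inhibitors rose, and in cells given LPS with RCMNs it was lower than under LPS in nearly all. Against control, 7 of the 10 genes were higher under LPS (Nfkb1, Nfkb2, Relb, Nfkbia, Nfkbib, Nfkbiz and Bcl3), where 31.4% of all tested genes were called higher, and 1 was lower (Nfkbie), where 32.1% of all were called lower. The median log2 fold change of the 10 genes was 1.5, against -0.04 over all genes tested. Against LPS alone, LPS+RCMNs had 9 of the 10 genes lower, all but Rel, with 29.5% of all tested genes called lower, and 0 of the 10 higher, with 29.8% of all called higher. Also 0 were higher at an unadjusted p below 0.05 in edgeR and in DESeq2, and 1, Rel, in limma on log2(FPKM + 1) (0.42, adjusted p = 0.0112). The median of the 10 was -1.38, against 0.03 over all genes. Against control, LPS+RCMNs had 1 of the 10 genes higher (Nfkbiz), with 4.33% of all called higher, and 2 lower (Relb and Nfkbie), with 3.23% of all called lower, at a median of -0.14 against -0.02 over all genes. Any 2 of these comparisons share the libraries of a group, so their values are given side by side and not as independent results. Calls are at a Benjamini-Hochberg adjusted p below 0.05 in edgeR's quasi-likelihood test over all genes tested, and levels are CPM, counts per M of scaled library size.

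**Figure D1:**
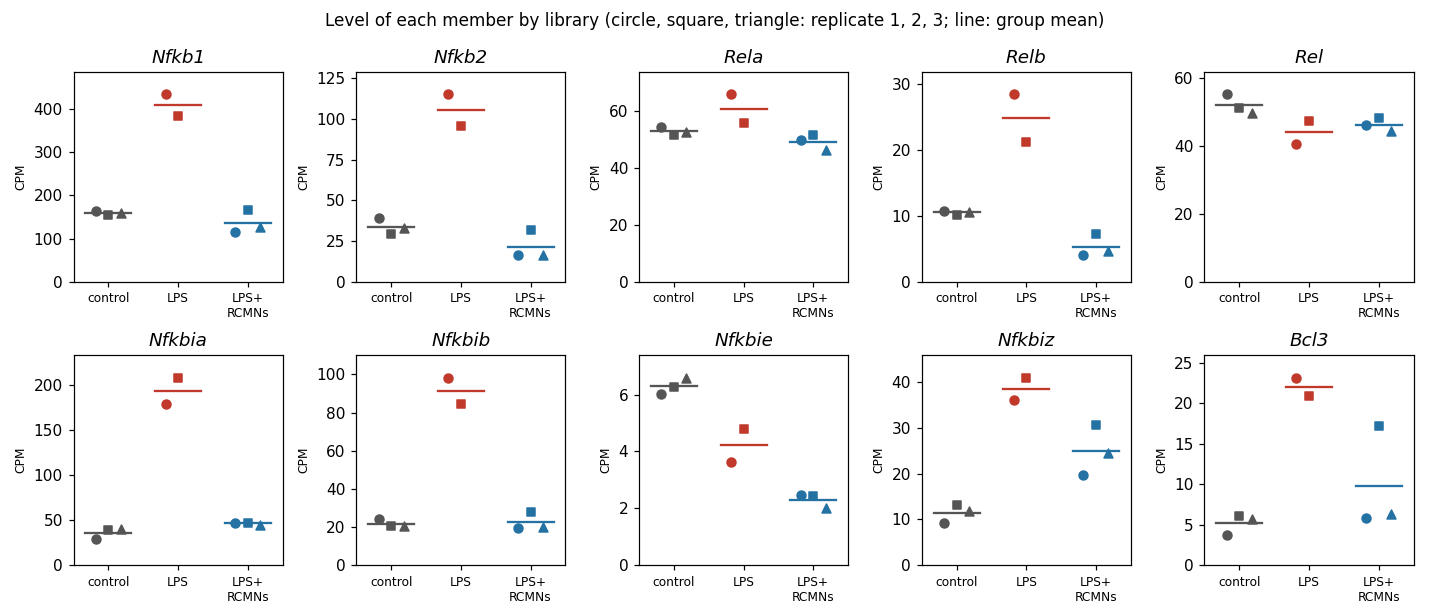
Level of each of the 10 genes in each library, in CPM on axes that start at 0, by group; circles, squares and triangles are replicates 1, 2 and 3 and lines are group means. Nfkbia lies at 179 and 208 CPM under LPS and between 28.4 and 47.2 CPM in all other libraries, and Bcl3 in LPS+RCMNs replicate 2 (17.2 CPM) lies well above the other 2 libraries of its group.

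Among the subunits, Nfkb1, the precursor of p50, had the highest level per length in each group. Its CPM was 164, 155 and 158 in control, 433 and 383 under LPS, and 116, 165 and 126 with LPS+RCMNs. Both LPS libraries lay above every other library, and the control and LPS+RCMNs libraries overlapped. Nfkb1 (gene ID 18033, GRCm38.p6 chr3:135584655-135691969) rose 2.56-fold under LPS (log2 1.36 ± 0.14 SE, adjusted p = 3.81e-05) and was lower in LPS+RCMNs than in LPS (log2 -1.59 ± 0.14, adjusted p = 2.10e-05). Against control its log2 fold change in LPS+RCMNs was -0.23 (adjusted p = 0.336), and without LPS+RCMNs replicate 2 it became -0.37 (adjusted p = 0.0344).

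Nfkb2, the precursor of p52, and Relb, the partner of p52 in the alternative route, moved much alike. Nfkb2 CPM was 39.3, 29.2 and 32.9 in control, 115 and 95.8 under LPS, and 16.2, 31.8 and 16.6 with LPS+RCMNs. Its LPS libraries stood above all others, and LPS+RCMNs replicates 1 and 3 lay below every control library while replicate 2 lay among them. Nfkb2 (gene ID 18034, chr19:46300994-46312400) rose under LPS (log2 1.64 ± 0.27, adjusted p = 5.35e-04) and was lower in LPS+RCMNs than in LPS (log2 -2.29 ± 0.27, adjusted p = 9.23e-05). Its difference from control in LPS+RCMNs, log2 -0.65 ± 0.25, missed the threshold (adjusted p = 0.155) and passed it without LPS+RCMNs replicate 2 (log2 -1.02, adjusted p = 0.00564). Exons of Nfkb2 share 830 of 4584 annotated bases with genes on the opposite strand, and whether counting used strand is not given.

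Relb CPM was 10.8, 10.1 and 10.6 in control, 28.4 and 21.2 under LPS, and 4.02, 7.29 and 4.71 with LPS+RCMNs. The 3 groups did not overlap: LPS libraries were highest, control libraries in between and LPS+RCMNs libraries lowest. Relb (gene ID 19698, chr7:19606217-19629438) rose under LPS (log2 1.24 ± 0.23, adjusted p = 0.00121), was lower in LPS+RCMNs than in LPS (log2 -2.22 ± 0.24, adjusted p = 5.26e-05) and lower than in control (log2 -0.98 ± 0.22, adjusted p = 0.0305). The last call was lost in 9 of 20 alternative settings, with any single library left out except LPS+RCMNs replicate 2 among them: log2 values then ran from -0.99 to -0.81, and adjusted p from 0.0535 to 0.136.

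Rela, which carries the main transactivation domain of the classical dimer, and Rel, a lymphoid and myeloid subunit of the same kind, moved least of the 10 genes under LPS as fitted. Rela CPM was 54.3, 51.5 and 52.5 in control, 65.8 and 55.7 under LPS, and 49.8, 51.4 and 46.4 with LPS+RCMNs. LPS libraries were the highest, LPS replicate 2 only just so, and every LPS+RCMNs library was below every control library by a small margin. Rela (gene ID 19697, chr19:5637442-5648134) had a log2 fold change of 0.20 ± 0.10 under LPS, which missed the threshold (adjusted p = 0.109) and passed it without control replicate 1 (0.28, adjusted p = 0.0490), LPS replicate 2 (0.37, adjusted p = 0.0274) or LPS+RCMNs replicate 2 (0.25, adjusted p = 0.0473). On the deposited FPKM scale its direction turned: Rela FPKM was 18.4 to 21.1 under LPS, below the 23.2 to 25.6 of control. Rela was lower in LPS+RCMNs than in LPS (log2 -0.30 ± 0.10, adjusted p = 0.0282), a call lost without LPS replicate 1 (-0.20, adjusted p = 0.208), LPS+RCMNs replicate 1 (-0.31, adjusted p = 0.0618) or LPS+RCMNs replicate 3 (-0.29, adjusted p = 0.0823). FPKM turned that direction too, with a log2 difference of 0.12 on the log2(FPKM + 1) scale. Against control, its log2 fold change in LPS+RCMNs was -0.10 (adjusted p = 0.563).

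Rel CPM was 55.2, 51.2 and 49.7 in control, 40.7 and 47.3 under LPS, and 46.2, 48.1 and 44.3 with LPS+RCMNs. Control libraries were highest, and the LPS and LPS+RCMNs libraries overlapped. Rel (gene ID 19696, chr11:23736847-23770969) had log2 fold changes of -0.24 ± 0.10 under LPS (adjusted p = 0.0689), 0.07 ± 0.10 in LPS+RCMNs against LPS (adjusted p = 0.581) and -0.17 in LPS+RCMNs against control (adjusted p = 0.314), none of which passed. At 7.42 kb it is the longest of the 10 genes, and genes of its length had a median log2 fold change of -1.0 under LPS. With the trend on length and level removed, Rel rose under LPS (log2 0.79 ± 0.10, adjusted p = 3.78e-04) and was lower in LPS+RCMNs than in LPS (log2 -0.89 ± 0.10, adjusted p = 2.92e-04), so both signs turned.

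Nfkbia encodes IkappaBalpha, the inhibitor that is degraded and resynthesised fastest after stimulation, and it showed the largest rise of the 10 genes as fitted. Its CPM was 28.4, 38.7 and 39.6 in control, 179 and 208 under LPS, and 47.2, 46.8 and 44.9 with LPS+RCMNs. LPS libraries stood far above the rest, and every LPS+RCMNs library lay above every control library. Nfkbia (gene ID 18035, chr12:55489409-55492647) rose 5.44-fold under LPS (log2 2.44 ± 0.14, adjusted p = 1.91e-06) and was lower in LPS+RCMNs than in LPS (log2 -2.06 ± 0.14, adjusted p = 5.16e-06). Against control the remaining difference in LPS+RCMNs, log2 0.38 ± 0.13, missed the threshold (adjusted p = 0.116). Without control replicate 1, the lowest of its group, and LPS+RCMNs replicate 2, it was smaller and passed (log2 0.26 ± 0.08, adjusted p = 0.0441).

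Nfkbib, which encodes the slower-acting inhibitor IkappaBbeta, had a CPM of 24.1, 20.6 and 20.6 in control, 98.3 and 84.5 under LPS, and 19.2, 27.9 and 19.9 with LPS+RCMNs. The LPS libraries were the highest, and the other 2 groups overlapped. Nfkbib (gene ID 18036, chr7:28758251-28766644) rose under LPS (log2 2.07 ± 0.17, adjusted p = 9.31e-06), was lower in LPS+RCMNs than in LPS (log2 -2.03 ± 0.17, adjusted p = 1.33e-05) and differed from control by 0.04 in LPS+RCMNs (adjusted p = 0.924). It is the shortest of the 10 genes, and its rise under LPS became 1.34 (adjusted p = 1.70e-04) with the length and level trend removed, and its difference from LPS in LPS+RCMNs became -1.34 (adjusted p = 2.45e-04). Exons of Nfkbib share 356 of 2169 annotated bases with genes on the opposite strand.

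Nfkbie, which encodes IkappaBepsilon, was the only one of the 10 genes called lower in LPS than in control. Its CPM was 6.03, 6.28 and 6.60 in control, 3.63 and 4.79 under LPS, and 2.45, 2.43 and 2.02 with LPS+RCMNs. The 3 groups did not overlap and fell in the order control, LPS, LPS+RCMNs. Nfkbie (gene ID 18037, chr17:45555700-45563169) had a log2 fold change of -0.58 ± 0.20 under LPS (adjusted p = 0.0300), -0.87 ± 0.21 in LPS+RCMNs against LPS (adjusted p = 0.00545) and -1.45 ± 0.18 in LPS+RCMNs against control (adjusted p = 0.00240). The last call held in all 19 alternative settings tried. The call under LPS was lost without control replicate 2 (-0.54, adjusted p = 0.0898), control replicate 3 (-0.50, adjusted p = 0.112), LPS replicate 1 (-0.36, adjusted p = 0.237) or LPS+RCMNs replicate 3 (-0.53, adjusted p = 0.0540), and with the length and level trend removed (-0.42, adjusted p = 0.119).

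The atypical IkappaB proteins Nfkbiz and Bcl3 act in the nucleus, where IkappaBzeta helps to switch on a set of secondary response genes and Bcl3 binds p50 and p52 homodimers. Nfkbiz CPM was 9.10, 13.2 and 11.9 in control, 36.1 and 41.0 under LPS, and 19.8, 30.6 and 24.5 with LPS+RCMNs. The groups did not overlap, with LPS+RCMNs libraries between control and LPS libraries. Nfkbiz (gene ID 80859, chr16:55811375-55838954) rose under LPS (log2 1.76 ± 0.20, adjusted p = 6.83e-05) and remained higher than in control with LPS+RCMNs (log2 1.13 ± 0.19, adjusted p = 0.00838), a call that held in all 20 alternatives. It was lower in LPS+RCMNs than in LPS (log2 -0.63 ± 0.20, adjusted p = 0.0227), but not without LPS replicate 1 (-0.73, adjusted p = 0.0530), LPS replicate 2 (-0.57, adjusted p = 0.115), LPS+RCMNs replicate 1 (-0.48, adjusted p = 0.0681) or LPS+RCMNs replicate 3 (-0.64, adjusted p = 0.0516). On the log2(FPKM + 1) scale that difference was -0.07 (adjusted p = 0.762 in limma). The length of Nfkbiz implied by its count and FPKM was up to 4.06 kb in the LPS libraries and from 3.57 kb in the others. FPKM also carries no TMM scaling factor, which was 0.779 and 0.803 in the LPS libraries and 1.05 to 1.06 with LPS+RCMNs. The 2 scales thus weigh this gene differently, and the part of length and of scaling in that was not tested.

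Bcl3 CPM was 3.73, 6.10 and 5.67 in control, 23.2 and 20.9 under LPS, and 5.79, 17.2 and 6.30 with LPS+RCMNs. LPS libraries were the highest, and LPS+RCMNs replicate 2 lay nearer to them than to the rest of its own group. Bcl3 (gene ID 12051, chr7:19808462-19822824) rose under LPS (log2 2.09 ± 0.43, adjusted p = 0.00224), was lower in LPS+RCMNs than in LPS (log2 -1.18 ± 0.42, adjusted p = 0.0363) and differed from control by 0.92 ± 0.40 (adjusted p = 0.211). Exons of Bcl3 share 161 of 2475 annotated bases with a gene on the opposite strand. Without control replicate 1 and LPS+RCMNs replicate 2 the log2 values became 1.96, -1.89 and 0.07, the last with an adjusted p of 0.774. The second call was lost without LPS replicate 1 (-1.11, adjusted p = 0.144), LPS replicate 2 (-1.28, adjusted p = 0.0958), LPS+RCMNs replicate 1 (-0.91, adjusted p = 0.0966) or LPS+RCMNs replicate 3 (-0.96, adjusted p = 0.0973), and with the length and level trend removed (-0.98, adjusted p = 0.102).

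With control replicate 1 and LPS+RCMNs replicate 2 both left out, the comparison of LPS+RCMNs with control called 2 of the 10 genes higher (Nfkbia and Nfkbiz), where 14.8% of all tested genes were called higher, and 4 lower (Nfkb1, Nfkb2, Relb and Nfkbie), where 10.6% of all were called lower. All 3 genes called with every library in the fit were called again. Rela, Rel, Nfkbib and Bcl3 were not called. The 2 libraries left out were picked from these same data because they stood apart, and leaving them out narrows the spread within groups. Over all genes tested, the share called higher was 4.33% with every library and 14.8% in that fit, and lower 3.23% and 10.6%. The 2 of 10 called higher lie near the share over all genes. The added calls of Nfkb1, Nfkb2 and Nfkbia describe that fit and give no further support.

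**Figure D2:**
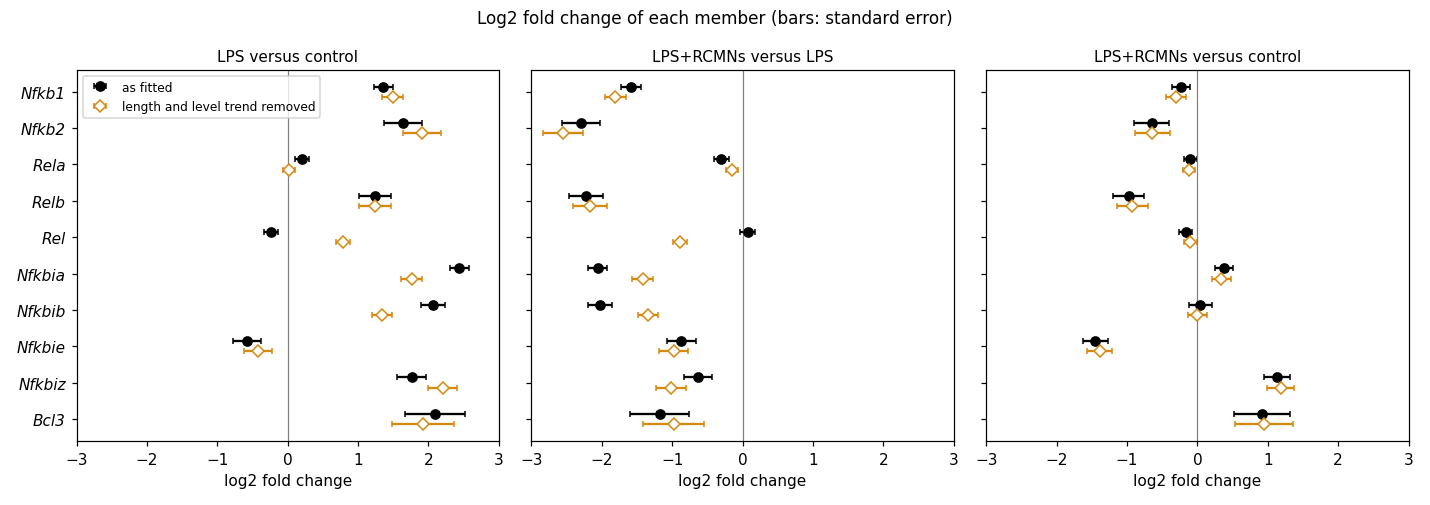
Log2 fold change of each gene in the 3 comparisons, as fitted (filled circles) and with the trend on length and level removed (open diamonds); bars are standard errors. Rel moves from -0.24 to 0.79 under LPS, while Relb stays at 1.24, and the 2 estimates nearly coincide in the comparison of LPS+RCMNs with control.

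With the trend on gene length and level removed, 8 of the 10 genes were called higher under LPS, at 21.1% of all tested genes, and 0 lower, at 21.4% of all, also 0 in edgeR at an unadjusted p below 0.05. Against LPS, 8 were lower in LPS+RCMNs, at 19.8% of all, and 0 higher, at 18.8% of all, again 0 in edgeR at an unadjusted p below 0.05. Both counts of 0 were 0 in DESeq2 without the removal too. Against control, 1 was higher, at 4.32% of all, and 2 were lower, at 3.52% of all. The rise of Nfkbia under LPS became 1.76 ± 0.15, that of Nfkb1 1.49 ± 0.15, that of Nfkb2 1.91 ± 0.27 and that of Nfkbiz 2.20 ± 0.21. In LPS+RCMNs against LPS, Nfkbia became -1.42 ± 0.15 and Nfkbiz -1.02 ± 0.21. Rela then differed by 0.02 ± 0.09 under LPS. Nfkb1, Nfkb2, Relb, Nfkbia, Nfkbib, Nfkbiz and Bcl3 kept their calls under LPS in all 20 alternatives.

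**Figure D3:**
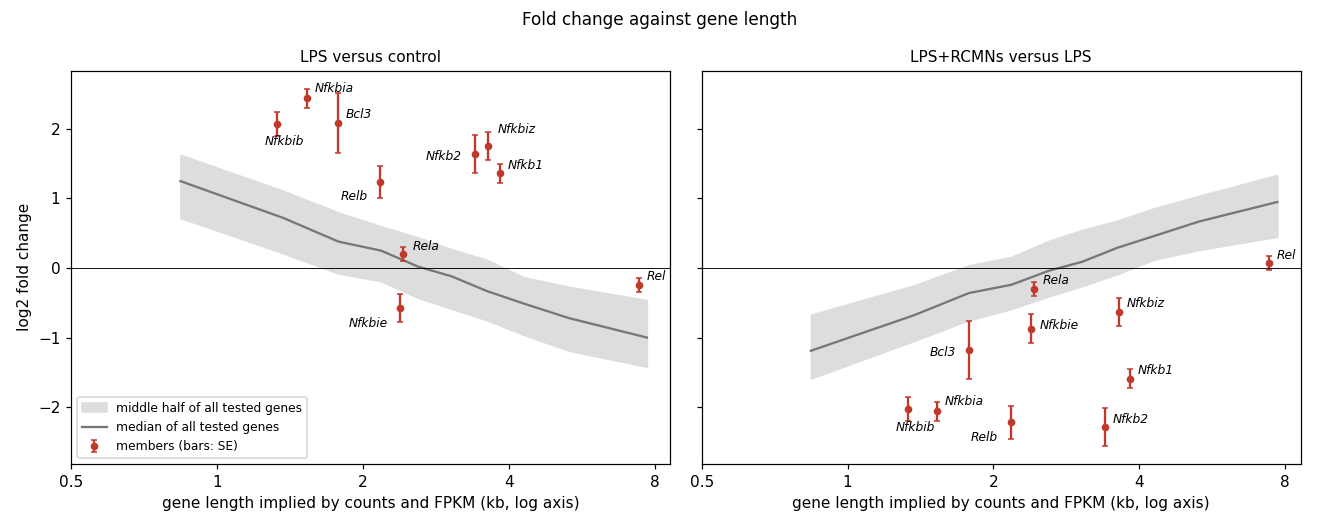
Log2 fold change of the 10 genes (points with standard errors) against gene length in kb on a log axis, with the median and the middle quartiles of all tested genes in 10 bins of length. Under LPS the median of all genes runs from 1.25 at 0.84 kb to -1.0 at 7.71 kb; Nfkb1, Nfkb2 and Nfkbiz lie far above it at their lengths, and Rela lies on it.

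Levels were compared between genes per length, as deposited FPKM. In control cells the order of mean FPKM was Nfkb1 46.1, Nfkbia 25.7, Rela 24.2, Nfkbib 18, Nfkb2 11, Rel 7.78, Relb 5.39, Nfkbiz 3.46, Bcl3 3.20 and Nfkbie 2.92. The ranges of Nfkbia and Rela overlapped, as did those of Nfkbiz, Bcl3 and Nfkbie, and the other neighbours did not overlap. Under LPS Nfkbia led with a mean FPKM of 100, above Nfkb1 at 84.1 and Nfkbib at 54.5, while Rela at 19.8 came after Nfkb2 at 24.8. Bcl3 and Relb overlapped there, as did Relb and Nfkbiz, and Rel at 4.70 and Nfkbie at 1.40 came last. With LPS+RCMNs the first 4 were Nfkb1 at 37.4, Nfkbia at 32.0, Rela at 21.5 and Nfkbib at 17.7, the same order as in control, and Nfkb1 overlapped Nfkbia and Rela overlapped Nfkbib. The clearest shift in rank against control was that of Nfkbiz, whose mean FPKM of 7.37 stood next, in a range shared with Rel, Nfkb2 and Bcl3.

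Set against Rela RNA, Nfkbia RNA per length was 0.822, 1.19 and 1.19 in control, 4.31 and 5.93 under LPS, and 1.5, 1.46 and 1.5 with LPS+RCMNs. The 3 groups did not overlap: the mean ratio was 1.07 ± 0.212 (SD, n = 3), 5.12 ± 1.15 (SD, n = 2) and 1.49 ± 0.0231 (SD, n = 3). Summed FPKM of Nfkbia, Nfkbib, Nfkbie, Nfkbiz and Bcl3 over summed FPKM of the 5 subunits gave 0.567 ± 0.0652 in control, 1.23 ± 0.163 under LPS and 0.858 ± 0.0151 with LPS+RCMNs, again without overlap. The upper sum includes the atypical Nfkbiz and Bcl3, so it is not RNA of the classical inhibitors alone. Length differs between the genes of such a ratio, and genes near the length of Nfkbia (1.37 kb) had a median log2 fold change of 0.72 under LPS against 0.02 at 2.60 kb, near that of Rela. With the trend on length and level removed, the log2 fold changes under LPS were 1.76 for Nfkbia and 0.02 for Rela. The trend occurs in the LPS libraries and cannot be told apart from LPS, so its part in these ratios was not tested. These ratios are descriptions of RNA and carry no test.

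Within the subunits, Nfkb1 made up 48.8% ± 0.651 of summed FPKM in control, 59.0% ± 0.919 under LPS and 50.0% ± 2.04 with LPS+RCMNs (SD, n = 3, 2 and 3). Rela made up 25.7% ± 0.252, 13.8% ± 0.212 and 29.3% ± 3.79 in the same order. The share of Relb was 5.70% ± 0.198, 6.40% ± 0.643 and 3.32% ± 0.619, and that of Nfkb2 was 11.6% ± 1.11, 17.4% ± 0.707 and 8.46% ± 2.39. Under LPS the mixture thus held a larger part of Nfkb1 and Nfkb2 and a smaller part of Rela, and with LPS+RCMNs the part of Relb was below that of control in every library. Among the inhibitors and atypical IkappaB proteins together, Nfkbiz made up 6.46% ± 0.760 in control, 4.44% ± 0.410 under LPS and 11.5% ± 1.31 with LPS+RCMNs. Nfkbie made up 5.49% ± 0.257, 0.801% ± 0.134 and 1.61% ± 0.223. For both the LPS+RCMNs libraries lay apart from the control libraries, Nfkbiz above and Nfkbie below. These shares are not corrected for the length trend of the LPS libraries. With the trend on length and level removed, Nfkbiz had the largest log2 rise of the inhibitors and atypical IkappaB proteins under LPS. Its value was 2.20, against 1.92 for Bcl3, 1.76 for Nfkbia, 1.34 for Nfkbib and -0.42 for Nfkbie. The lower share of Nfkbiz under LPS describes deposited FPKM and does not carry over to those values.

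**Figure D4:**
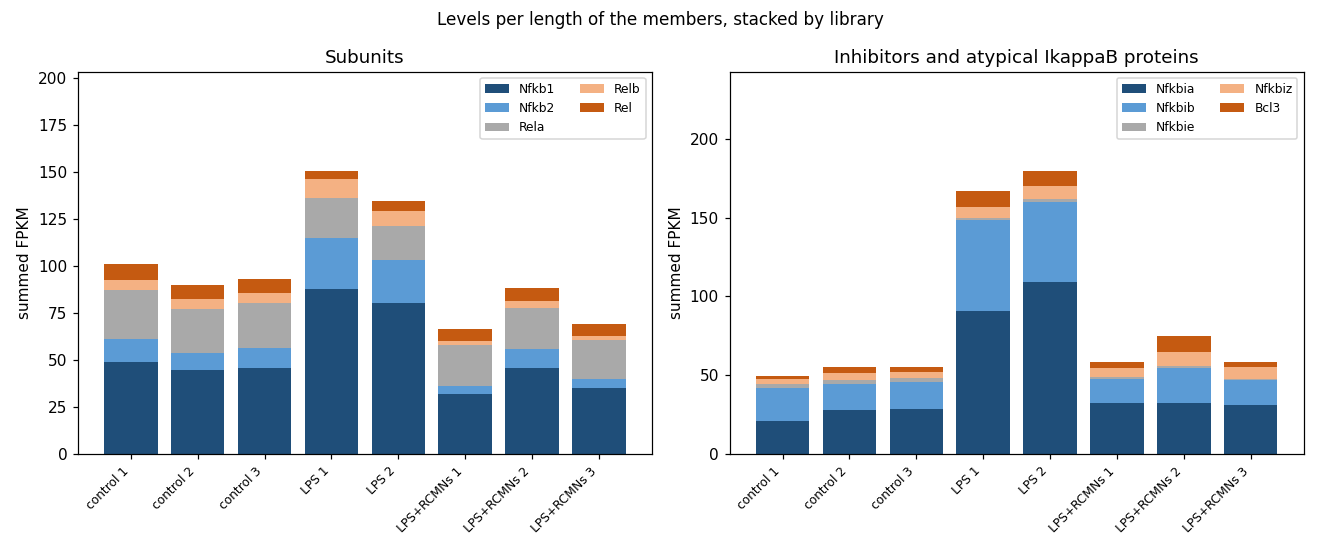
Summed FPKM of the 5 subunits (left) and of the 5 inhibitors and atypical IkappaB proteins (right) in each library, as stacked bars from 0. Subunits sum to 89.6 to 101 FPKM in control, 135 to 150 under LPS and 66.3 to 88.2 with LPS+RCMNs. Inhibitors and atypical IkappaB proteins together sum to 49.6 to 55.4, 167 to 180 and 58 to 75.

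The machinery upstream of the 10 genes was described with lists of other pathway genes. Of all tested genes 31.4% were called higher and 32.1% lower under LPS, 29.8% and 29.5% in LPS+RCMNs against LPS, and 4.33% and 3.23% in LPS+RCMNs against control. With the length and level trend removed these shares were 21.1% and 21.4%, 18.8% and 19.8%, and 4.32% and 3.52%. For the lists, counts of 0 that are given with the trend removed were 0 in edgeR also at an unadjusted p below 0.05, except for 2 kinase genes that were then higher in LPS+RCMNs than in LPS. Of 13 IkappaB kinase and activating kinase genes, which phosphorylate the inhibitors or the kinases above them, 3 were higher and 7 lower under LPS, at a median log2 fold change of -0.35, and 4 were higher and 2 lower, at 0.06, with the length and level trend removed. Against LPS, 7 were higher and 2 lower in LPS+RCMNs at 0.29, and 0 and 4 at 0.04 with the trend removed. Ikbkg, the regulatory subunit NEMO at 7.20 kb, turned from -0.63 to 0.40 between the 2 fits under LPS. Chuk and Ikbkb had -0.14 (adjusted p = 0.212) and -0.41 (adjusted p = 0.00786) under LPS, and 0.03 and -0.11 with the trend removed. Against LPS they had 0.28 (adjusted p = 0.027) and 0.41 (adjusted p = 0.00912) in LPS+RCMNs. With the trend removed these became 0.08 (adjusted p = 0.488) and 0.10 (adjusted p = 0.429). Map3k14, the kinase of the alternative route, had log2 fold changes of -0.64 under LPS (adjusted p = 0.00423), 0.00 with the trend removed (adjusted p = 0.990) and 0.94 in LPS+RCMNs against LPS as fitted (adjusted p = 5.22e-04), a call that was lost with the trend removed (0.38, adjusted p = 0.0869). Of these 13 genes, 0 were called in LPS+RCMNs against control, where edgeR gave 2 higher and 2 lower at an unadjusted p below 0.05, and DESeq2 called 0 higher and 2 lower. Of 18 receptor-proximal adaptors and ligases, 5 were higher and 7 lower under LPS, at a median of -0.25, and 7 were higher and 3 lower, at 0.11, with the trend removed. Against LPS, 3 were higher and 5 lower in LPS+RCMNs, and 0 and 7 with the trend removed. Against control 2 were lower in LPS+RCMNs, Irak1 (-0.46 ± 0.08, adjusted p = 0.00895) and Traf6 (-0.34 ± 0.09, adjusted p = 0.0458; -0.26 and 0.0939 with the trend removed), both parts of the signalling complex below Toll-like receptors. With each library left out in turn, 0 or 1 of the 18 was lower. Myd88, the adaptor of that complex, rose under LPS (0.92 ± 0.10, adjusted p = 4.24e-05; 0.41 with the trend removed) and was lower in LPS+RCMNs than in LPS (-0.89 ± 0.10, adjusted p = 6.39e-05; -0.43 with the trend removed).

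Other brakes on the pathway moved as Nfkbia did in some cases. Of 15 feedback inhibitor genes, 8 were higher and 3 lower under LPS at a median of 0.30, 3 were higher and 7 lower in LPS+RCMNs against LPS at -0.42, and 2 were higher in LPS+RCMNs against control at 0.04. With the length and level trend removed, 5 were higher and 0 lower under LPS at 0.26, and 0 higher and 5 lower against LPS at -0.19. Tnfaip3, the ubiquitin-editing enzyme A20, rose under LPS (2.60 ± 0.37, adjusted p = 2.30e-04) and was lower in LPS+RCMNs than in LPS (-1.93 ± 0.36, adjusted p = 0.00135). Its partner Tnip1 did the same (2.59 ± 0.20, adjusted p = 6.96e-06, and -1.98 ± 0.20, adjusted p = 3.42e-05). Cyld, at 8.06 kb, went the other way as fitted (-1.17 ± 0.17, adjusted p = 3.18e-04, and 0.83 ± 0.17, adjusted p = 0.00255). With the trend removed Cyld was not called in either comparison (-0.05, adjusted p = 0.81, and -0.19, adjusted p = 0.364). Irak3, an inhibitory member of the Irak kinase family, was the clearest of those that stayed higher than control in LPS+RCMNs (1.44 ± 0.12, adjusted p = 2.68e-04), and Zc3h12a, the RNase Regnase-1 that degrades inflammatory mRNAs and Nfkbiz mRNA, was the other (1.09 ± 0.20, adjusted p = 0.0128). Of 7 other IkappaB-related genes, 3 were higher and 1 lower under LPS, at a median of 0.20, and 3 and 0, at 0.16, with the trend removed. Nfkbid, the atypical IkappaBNS, had log2 fold changes of -0.55 ± 0.40 under LPS (adjusted p = 0.252) and 0.92 ± 0.40 in LPS+RCMNs against LPS (adjusted p = 0.0724), and the latter passed with the trend removed (1.21, adjusted p = 0.0454). Of 5 genes for IkappaB degradation that were tested, 2 were higher and 1 lower under LPS at a median of 0.12, and 4 and 0, at 0.64, with the trend removed. Rbx1 (1.29 ± 0.09, adjusted p = 4.36e-06; 0.64 with the trend removed) and Cul1 (0.78 ± 0.10, adjusted p = 1.65e-04), both parts of the ubiquitin ligase, rose. Of 5 tested receptor genes of the alternative route, 3 were higher and 2 lower under LPS at a median of 0.59, which became 0.28 at the same counts with the trend removed. Cd40 rose under LPS (2.93 ± 0.16, adjusted p = 1.59e-06), Tnfrsf11a, the receptor RANK, fell (-1.96 ± 0.18, adjusted p = 1.80e-05; -1.27 with the trend removed), and both went the other way in LPS+RCMNs against LPS (-2.73 and 2.19).

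Downstream, 25 textbook target genes outside the pathway were tested of 29 listed. Under LPS 21 were higher and 1 lower at a median of 2.73, in LPS+RCMNs 19 were lower than in LPS and 0 higher at -1.95, and against control 11 were higher and 0 lower at 0.71. With the length and level trend removed these became 18 and 1 at 1.87, 16 lower and 1 higher at -1.19, and 10 higher and 1 lower at 0.68. In 3 of the 25, Il1b, Il12b and Nos2, every control library held under 10 counts, so that they passed the filter through other libraries. Il6 was nearly as low in control, at 0.217 to 0.605 CPM. The calls of higher against control of all these named genes were close to fixed by that. They add no support to these counts and medians. Beside the counts of 0, edgeR gave 0 higher against LPS and 3 lower against control at an unadjusted p below 0.05, DESeq2 called 0 and 2, and limma on log2(FPKM + 1) called 2 and 1. Il1b, the cytokine interleukin-1 beta, had 0.0433 to 0.233 CPM in control, 354 and 349 under LPS, and 6.38 to 7.40 with LPS+RCMNs. Of 7 listed genes known to need Nfkbiz for their induction 5 were tested, of which Il6 and Il12b are also among the 25. In 3 of the 5, Csf3, Il12b and Lcn2, every control library held under 10 counts (at most 0.232 CPM), so no count or median over the 5 is given. Against LPS, Il6, Csf3, Ebi3 and Il12b were lower in LPS+RCMNs, and only Lcn2 was higher. The log2 values were -4.24 for Csf3, -1.54 for Ebi3 and -4.18 for Il12b. Il12b had a mean of only 0.345 CPM with LPS+RCMNs. Lcn2, which encodes the siderophore-binding protein lipocalin 2, had 0.130 to 0.186 CPM in control, 93.7 and 78.4 under LPS, and 165, 133 and 151 with LPS+RCMNs (log2 0.80 ± 0.12 against LPS, adjusted p = 4.11e-04; 1.81 with the trend removed), while Il6, an inflammatory cytokine, had 108 and 133 under LPS and 3.65 to 4.0 with LPS+RCMNs (log2 -4.96 ± 0.18, adjusted p = 7.80e-07).

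**Figure D5:**
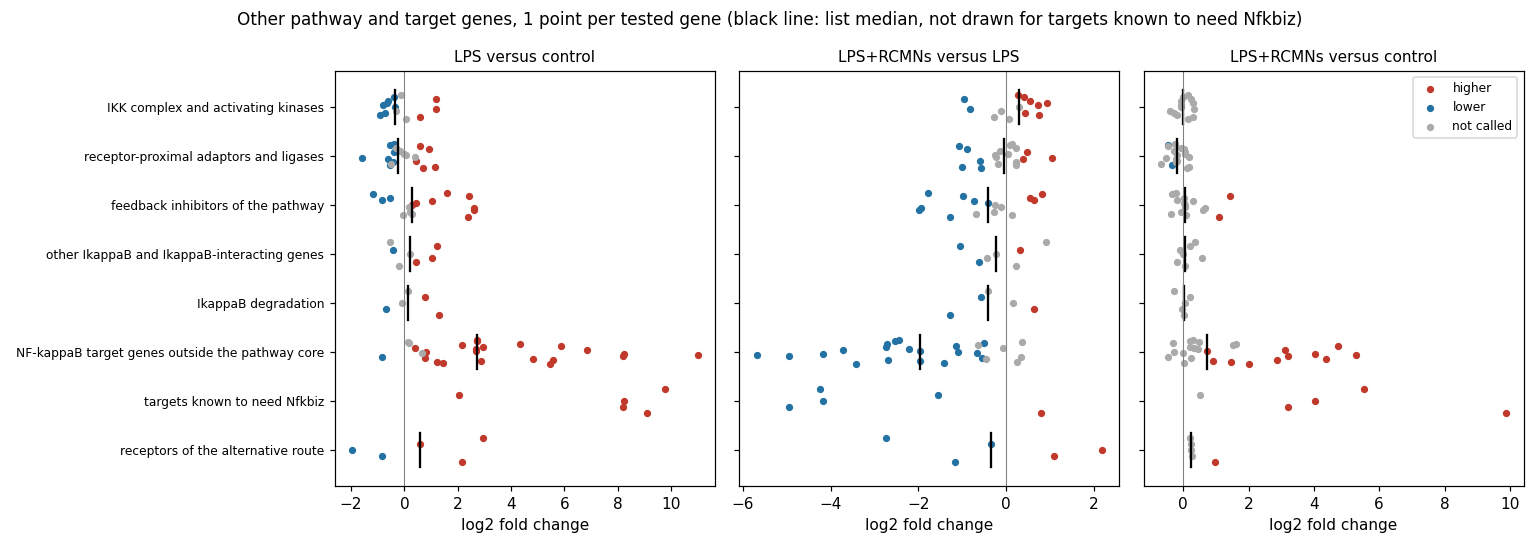
Log2 fold changes of the tested genes of 8 lists around the 10 genes, 1 point per gene, coloured by call, with list medians as black lines (not drawn for targets known to need Nfkbiz), in the 3 comparisons. The median of the target genes as fitted is 2.73 under LPS and -1.95 in LPS+RCMNs against LPS, while medians of the kinase and adaptor lists stay between -0.35 and 0.29. With the length and level trend removed the target medians are 1.87 and -1.19. In 3 of the 25 target genes every control library held under 10 counts, and Il6 lay at 0.217 to 0.605 CPM in control.

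Patterns over the 8 libraries were compared by the mean absolute difference of log2 CPM, each gene centred on its own mean, over 7960 candidate genes whose mean FPKM reached 5. Genes most like Relb were Egfl7 at 0.181, Nfkb2 at 0.186 and Tlr2 at 0.227. Nfkb2 and Relb differed by 0.19 also when all 10 genes were set against each other, second only to Rela and Rel at 0.15. These differences are on CPM without the trend on length and level removed. With it removed, Rela and Rel parted, at log2 0.02 and 0.79 under LPS. In LPS+RCMNs against LPS they were then at -0.15 and -0.89. Nearest to Nfkbia was Clec4e, a C-type lectin receptor, at 0.084, then Selenow at 0.123, and nearest to Nfkb1 was Dtd1 at 0.054. Rela was nearest to Arfip2 at 0.033, Rel to Wbp11 at 0.037 and Nfkbib to Ube2s at 0.064. Nfkbiz had no neighbour nearer than Prdx1 at 0.169, followed by Gclm at 0.170, both genes of the antioxidant response, and Cd52 at 0.174. Bcl3 had none nearer than Nme1 at 0.25. Such likeness is a description over 8 libraries that share depth, group and length trend.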

How the data were processed

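RNA of MH-S cells was enriched with oligo(dT) beads and made into libraries with a BGI kit, per the labels' protocols. The authors deposited a table of read counts and FPKM, an expected count and a value per length for every gene in every library, made by them from reads aligned to mm10, per the file headers and the submitters' processing notes. The aligner, counter, annotation and use of strand are not given in the sources. The deposited counts are estimated counts, since 77.8% of those above 0 lay more than 0.001 from a whole number, and they were rounded here. Columns were matched to samples by library code, and 4 whose code belongs to no labelled sample were left aside.

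The 10 genes, the lists and the rule for named genes (all 10; per list and comparison the 3 called genes of smallest p among those whose mean FPKM reached 5; and 8 fixed regulators; likeness by the 3 nearest genes) were chosen with earlier results of these data known. Il1b and Lcn2 were described by levels after their values were seen. A marker of the erythroid list is not reported here and was left out of its sum. Genes passed filterByExpr (11911 of 17518), were scaled by TMM (factors 0.779 and 0.803 for LPS, 1.05 to 1.13 for the others) and tested with edgeR 4.0.16 (quasi-likelihood, all 8 libraries in 3 groups, no block) in R 4.3.3, with Benjamini-Hochberg adjustment over all genes tested. SE is the log2 fold change over the square root of F. The common biological coefficient of variation was 14.5%. A level of 3 counts corresponds to 0.130 to 0.182 CPM. Gene length is that implied by count and FPKM. Trends on length, or on length and mean level, were removed as loess offsets (span 0.4). Alternatives were limma 3.58.1 on log2(FPKM + 1) and log2(FPKM + 0.1), DESeq2 1.42.0, other filters and scaling, a robust prior, only the groups compared, the replicate block, and libraries left out. Gene places, promoters and exons are from RefSeq (GRCm38.p6) and GENCODE.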

Additional observations from a re-analysis of the deposited data

How the results depend on the processing

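Over 30 results for single genes and 597 alternative values, 536 kept direction and side of the threshold, 39 lost it, 14 gained it and 8 reversed. With limma on log2(FPKM + 1) and log2(FPKM + 0.1), 3 of the 10 genes were lower under LPS instead of 1, and 1 was higher and 5 lower in LPS+RCMNs than in LPS; Rela reversed to -0.28 and -0.30 under LPS and to 0.12 and 0.12 against LPS, and Nkiras2 to -0.07 and -0.07 under LPS. Removing the trend on length, or on length and level, reversed Rel (0.56 and 0.79), Ikbkg (0.16 and 0.40), Traf6 (0.17 and 0.35) and Nkap (0.05 and 0.15) under LPS. In LPS+RCMNs against LPS it reversed Rel (-0.67 and -0.89), Ikbkg (-0.19 and -0.40), Traf6 (-0.44 and -0.60), Nkap (-0.12 and -0.19) and Ccl5 (0.43 and 0.30), Tab2 with length alone (-0.03), and Irak1 (-0.26) and Cyld (-0.19) with length and level. The count lower under LPS was 0 in DESeq2, with length and level removed and with the replicate block, and 0 to 1 with each library left out. In LPS+RCMNs against control, the count lower was 1 with only the groups compared, the stricter filter or the replicate block, 4 with control replicate 1 and LPS+RCMNs replicate 2 left out, when 2 were higher, and 1 to 4 with each library left out; 4 came without LPS+RCMNs replicate 2. A call by limma on FPKM rests on no TMM factor, and the cause of the other moves was not tested.

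Same-numbered libraries did not deviate together (correlations from -0.29 to 0.16), so the numbers are not taken as pairs. With the replicate block, the call of Nfkbie under LPS (adjusted p = 0.0655), of Rela against LPS (adjusted p = 0.0887) and of Relb against control (adjusted p = 0.0806) was lost, and 8 genes were lower in LPS+RCMNs than in LPS. Over all genes tested, LPS+RCMNs against control called 516 higher and 385 lower as fitted, 291 and 163 with the block, and 1756 and 1261 without the 2 libraries that stand apart. Where 1 LPS library was left out, the other was assumed to vary like the other groups. The LPS group holds 2 libraries, and the length trend and the erythroid RNA occur in that group and cannot be told apart from LPS.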
